A study of Mus musculus with 2 samples.

Results

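Complement is a cascade of blood and tissue proteins that marks cells and microbes for removal. C1q starts the classical pathway and mannose-binding lectins and ficolins the lectin pathway. Both cleave C4 and C2, while factor B drives the alternative pathway, and all routes meet at C3. Host cells carry inhibitors such as CD55 and CD59 that stop the cascade on their own membranes, and fat cells are a known source of several components. The genes described here are 8 complement components and regulators, namely C3, C4b, C2, Cfb, Cd55, Cd59a, C1qb and C3ar1. They were followed in the mouse preadipocyte line 3T3-L1, which becomes fat-like when induced, on Affymetrix Mouse Genome 430 2.0 arrays. Every probe set that the array's annotation assigns to exactly 1 of these genes was taken, which gave 15 of 45101 probe sets and covered 6 of the 8 genes. C3 and C4b have no probe set of their own in the annotation used and were not analysed here as single genes.

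Both groups were the same cells. Preadipocytes received either an siRNA against Phf21a or the control siRNA siGL3, adipogenic induction with insulin, dexamethasone and 3-isobutyl-1-methylxanthine began 24 h later, and RNA was taken after a further 24 h. The product of Phf21a, BHC80, reads histones as part of the LSD1 and CoREST corepressor complex, and the comparison asks which transcripts differ when it is reduced. Each group is 1 array (n = 1), so replicate errors and tests could not be had. The knockdown is transient and in 1 cell line. Because whole cultures were lysed, fewer cells expressing a gene and less RNA per cell cannot be told apart.

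Values are MAS5 signals on a linear scale, and a log2 ratio is always the Phf21a siRNA array over the control array. Each log2 ratio is given ± a local spread, the scatter of log2 ratios among the 1000 detected probe sets nearest in signal. It describes 1 array set against 1 array and includes any true differences. Detected means that at least 1 of both signals was 51.3 or more, the median over all probe sets and both arrays. The arrays' own medians were 53.0 (control) and 49.5 (Phf21a siRNA). Phf21a itself read 768 with the control siRNA and 306 with its own siRNA on its brightest probe set (log2 ratio -1.33 ± 0.52). Its other detected probe sets read 592 and 233 (-1.35 ± 0.57) and 111 and 67.0 (-0.73 ± 0.64). A further one was undetected at 39.2 and 43.8. Of 12 preadipocyte and early adipocyte markers 11 were detected, beside 62.1% of all genes on the array. Of the 11, 3 were at least 1.5-fold higher and 1 lower, beside 15.2% and 13.9% of all detected genes. Pparg (512 and 814), Fabp4 (3502 and 5849) and Pdgfrb (2092 and 3743) were higher with the Phf21a siRNA and Dlk1 lower (12290 and 5940), each past its local spread on the brightest probe set. The other Pdgfrb probe set read 472 and 517 (0.13 ± 0.52). Col1a1 was at -0.58 ± 0.41 and Lpl at -0.15 ± 0.41, and Cebpa was undetected. The part of these marker differences in the complement values was not tested. None of 6 endothelial markers was detected, and of 7 hepatocyte markers with a probe set 1 was detected, Apoh at 62.5 and 31.8. Both counts stand beside the same 62.1% of all genes.

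Of the 6 members with a probe set 3 were detected, beside 62.1% of all genes on the array, a share near the background. Of the 15 probe sets of the members 6 were detected, from Cd59a, Cd55 and C3ar1, against 60.4% of all probe sets that map to 1 gene. The other 9 stayed under the limit on both arrays, and with them all probe sets of C2, Cfb and C1qb. The 6 detected probe sets had log2 ratios from -1.21 to 0.47, and none exceeded its local spread. None was at least 1.5-fold higher, against a background of 14.2% of all detected probe sets, and 3 were at least 1.5-fold lower, against 16.3%. At 2-fold, 0 were higher (background 5.31%) and 1 was lower (6.73%). All 3 lower ones at 1.5-fold were detected on the control array alone, so their log2 ratios had to be below 0, and their count is not support for a difference. Nearest the limit from below lay Cfb at 50.9 and a C3ar1 probe set at 50.9, and nearest from above a Cd55 probe set at 51.6.

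**Figure D1:**
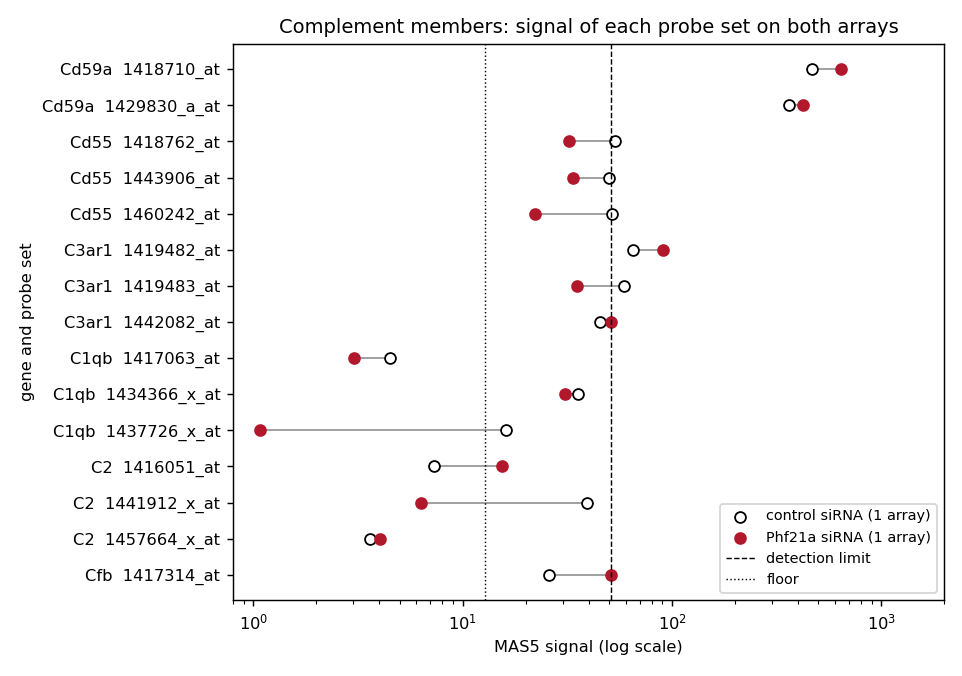
MAS5 signal (log axis) of each of the 15 probe sets, with open circles for the control siRNA array, filled circles for the Phf21a siRNA array, a dashed line at the detection limit of 51.3 and a dotted line at the floor of 12.9. Both Cd59a probe sets lie far to the right of the limit on both arrays, Cd55 and C3ar1 straddle it, and C1qb, C2 and Cfb lie to its left.

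CD55 and CD59 share a mode of attachment, a glycosylphosphatidylinositol anchor, and act at different steps: CD55 dismantles the convertases that cleave C3 and C5, and CD59 blocks assembly of the membrane attack complex. Cd59a was the member with clear signal on these arrays, whereas Cd55 lay at the limit, and the stretches just before their RefSeq starts are shown to set these regulators side by side. The reference table held a promoter for 5 of the 8 members. Each sequence below is the 250 bases before the start of the gene in build GRCm38.p6, read 5′ to 3′ on the gene's strand. Capitals mark matches on either strand to the GC box GGGCGG or to CACCC, the core of sites bound by Krüppel-like factors.
Cd59a: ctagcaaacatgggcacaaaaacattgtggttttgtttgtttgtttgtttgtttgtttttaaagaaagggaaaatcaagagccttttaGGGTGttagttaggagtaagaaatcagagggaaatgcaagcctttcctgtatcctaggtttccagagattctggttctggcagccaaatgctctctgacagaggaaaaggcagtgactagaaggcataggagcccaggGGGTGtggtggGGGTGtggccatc
Cd55: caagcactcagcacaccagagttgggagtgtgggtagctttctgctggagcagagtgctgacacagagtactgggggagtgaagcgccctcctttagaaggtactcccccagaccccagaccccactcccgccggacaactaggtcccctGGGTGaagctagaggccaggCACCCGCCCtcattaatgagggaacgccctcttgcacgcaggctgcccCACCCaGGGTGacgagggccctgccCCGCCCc

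The Cd59a stretch (chr2:104095551-104095800, plus strand) is 44.8% G and C and holds 0 CpG dinucleotides, while that of Cd55 (chr1:130462745-130462994, minus strand) is 64.0% G and C and holds 8. The median over all 32851 promoters in the table was 52.4% and 6 CpG. GGGCGG matched 2 times before Cd55 and 0 times before Cd59a, and 32.7% of all promoters hold it. CACCC matched 4 times before Cd55, where 1 match overlaps a GC box, and 3 times before Cd59a, and 52% of all promoters hold it. Neither stretch contains CCAAT (33.8% of promoters) or TATAAA (12.4%). These are descriptions of letters in a window, not of binding.

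Among the membrane regulators, Cd59a (Entrez gene 12509) read 466 with the control siRNA and 640 with the Phf21a siRNA on its brighter probe set. Its other probe set read 362 and 420. Both were therefore above the limit on both arrays and higher on the Phf21a siRNA array. The log2 ratios were 0.46 ± 0.52 and 0.22 ± 0.55, that is 1.37-fold and 1.16-fold, both within the local spread and under 1.5-fold. With scaling to the spiked poly-A control RNAs the brighter probe set was at -0.24, while the median of all detected genes moved to -0.66 under that scaling.

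Cd55 (Entrez gene 13136) was close to the limit on the control array and under it on the Phf21a siRNA array. Its 3 probe sets read 53.5, 51.6 and 49.9 with the control siRNA. With the Phf21a siRNA the same probe sets read 32.1, 22.3 and 33.5. All 3 were lower with the Phf21a siRNA. The detected probe sets had log2 ratios of -0.73 ± 1.14 and -1.21 ± 1.81, inside spreads that are wide at this signal. With every signal raised to the limit of 51.3, which treats values under it as unmeasured, the log2 ratios were -0.06 and -0.0087. Control signals so near the limit left no room for larger ratios in that setting. Among detected probe sets with both signals under 100, 26.6% were at least 1.5-fold lower and 18.6% at least 1.5-fold higher. A further probe set shared by Cd55 and its neighbouring paralog Cd55b was undetected at 14.6 and 1.34.

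The remaining membrane regulators came from a wider complement list of 57 genes. Cr1l encodes Crry, the rodent inhibitor that acts on C3 and C4 fragments, and its detected probe set read 1050 and 1221 (0.22 ± 0.48). Its other probe sets were undetected, with signals from 17.6 to 39.8. Cd46, a cofactor for cleavage of C3b and C4b, was near the limit at 50.2 and 74.6 (0.57 ± 0.64). Cd55b was undetected at 14.4 and 13.3, and so was Csmd1, a large membrane protein with complement-inhibiting domains. Of the 7 regulators on the list 6 had a probe set and 4 were detected. None of the 4 was at least 1.5-fold higher, beside 15.2% of all detected genes, and 1 was lower, beside 13.9%. That gene was Cd55, whose control signal was close to the limit. The floor at the limit ended its call by construction, so that setting cannot decide whether there was a difference.

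C3ar1 (Entrez gene 12267), the receptor for the anaphylatoxin C3a, gave probe sets that disagreed. The brightest read 65.5 with the control siRNA and 90.8 with the Phf21a siRNA, the next 59.3 and 35.0, and the dimmest 45.1 and 50.9. The brightest and the dimmest were higher with the Phf21a siRNA and the other was lower. The log2 ratios of the detected pair were 0.47 ± 0.61 and -0.76 ± 0.92, opposite in sign and both within their spread. Averaged they gave -0.14, so the sign of this gene depended on how its probe sets were combined.

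Among the other receptors C5ar1, the receptor for C5a, had no signal above 17.0 on either of its probe sets. The integrin subunits of complement receptors 3 and 4, Itgam, Itgax and Itgb2, were undetected, as were Cr2 and Vsig4. Those detected were Cd93 (238 and 259, 0.13 ± 0.56), C1qbp, a mostly mitochondrial protein named for its binding to C1q (8665 and 7829, -0.15 ± 0.30), and Calr, the chaperone calreticulin. Calr read 13932 and 11109 on its brightest probe set without the x suffix (-0.33 ± 0.24), and its 3 probe sets ranged from -0.65 to -0.33, each past its local spread and 1 of them at least 1.5-fold lower. Calreticulin and C1qbp have main roles outside complement.

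C3ar1 and C1q are typical of macrophages, so leukocyte markers were read beside them. Of 18 such markers 8 were detected, beside 62.1% of all genes on the array. The summed signal of the brightest probe set of each gene was 1254 with the control siRNA and 1851 with the Phf21a siRNA. Most of that difference came from Cd14 and the brightest probe set of Csf1r. The part of the leukocyte markers in the C3ar1 values was not tested. Of the 8 detected markers, 4 were at least 1.5-fold higher and 1 lower, beside 15.2% and 13.9% of all detected genes. Cd14 read 479 and 804. The brightest probe set of Csf1r read 200 and 452 (1.18 ± 0.57), but its others were at 0.18 and 0.22. Cd68 read 64.0 and 119 (0.89 ± 0.64). Fcer1g (25.7 and 54.4) and Laptm5 (66.4 and 22.3) went opposite ways, each with 1 signal under the limit, which fixed the sign of its ratio. Ptprc, carried by all leukocytes, was undetected on both probe sets, with no signal above 12.2, as were Tyrobp (4.66 and 6.32), Cd52 (1.61 and 3.87) and Adgre1 (36.2 and 23.5). Lyz2 was at 53.6 and 71.9 and Spi1 at 60.4 and 71.3, while Cd53 was lower at 98.2 and 71.7 (-0.45 ± 0.64).

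C1qb (Entrez gene 12260), which encodes a chain of C1q, the recognition unit of the classical pathway, was undetected. Its specific probe set read 4.51 and 3.03. The x-suffixed probe sets, which can pick up related transcripts, read 35.6 and 30.7 in one case and 16.1 and 1.07 in the other. C1qa (5.21 and 1.51) and C1qc (4.05 and 1.34), which encode the other chains, were also undetected, so no chain of C1q reached the limit on either array.

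C2 (Entrez gene 12263), the protease that C1s cuts to form the classical convertase, was undetected on all 3 probe sets. They read 7.28 and 15.4, 39.3 and 6.32, and 3.59 and 4.04 on the control and Phf21a siRNA arrays. Higher and lower values fell on either array, and each probe set had at least 1 signal under the floor of 12.9, so no fold is given. The C4 genes share a probe set, which reads C4a and C4b together and cannot be split. It read 113 and 72.4, 1.56-fold lower with the Phf21a siRNA (-0.65 ± 0.64), and was above the limit on both arrays. C4 is the precursor of the surface-bound C4b fragment.

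Of the proteases of the C1 complex, C1ra was detected at 170 and 206 (0.28 ± 0.58). C1s1 stayed under the limit at 20.8 and 45.8. In the classical pathway list 6 of 12 genes had a probe set and 1, C1ra, was detected.

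Cfb (Entrez gene 14962), the protease precursor of the alternative pathway, neighbours C2 on chromosome 17. It is read by 1 probe set, which gave 25.8 with the control siRNA and 50.9 with the Phf21a siRNA. The value was higher with the Phf21a siRNA, yet both lay under the limit, where MAS5 signals are noisy. Raising both to the limit removes any difference by construction, so that setting cannot decide whether there was one. Under quantile normalization Cfb passed the limit and was at least 2-fold higher. Properdin (Cfp), which stabilises the alternative convertase, read 156 and 109 (-0.52 ± 0.60), and its second probe set read 5.84 and 53.6. That second one was detected on the Phf21a siRNA array alone, so its ratio had to be above 0.

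One lectin pathway gene stood well above the limit. Masp1 encodes proteases that bind mannose-binding lectins and ficolins, and by splicing a non-catalytic form. It was 4.10-fold higher with the Phf21a siRNA on its brightest probe set (Entrez gene 17174, 403 to 1652, log2 ratio 2.04 ± 0.50). A further probe set gave 387 and 1587 (2.03), and the others 152 and 409 (1.42), 71.0 and 140 (0.98), and 29.5 and 62.5 (1.08 ± 1.05). The dimmest of these was detected on the Phf21a siRNA array alone, so its ratio had to be above 0. The other 4 were above the limit on both arrays, and all 4 were at least 1.5-fold higher and past their local spread. They read the same transcripts in part, so they are not separate observations, and which splice forms each reads was not determined here. The probe sets at 2.04, 2.03 and 1.42 carry an s or x suffix, and those at 0.98 and 1.08 do not. With suffixed probe sets left out, Masp1 was at 0.98 ± 0.64, or 1.97-fold higher. Under the poly-A scaling the brightest probe set was at 1.34. The lectins themselves, Mbl1, Mbl2, Fcna, Fcnb, Colec10 and Colec11, and Masp2 were undetected, so Masp1 was the 1 gene of 8 in that pathway to reach the limit.

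No terminal pathway gene was detected among the 6 with a probe set (Hc, C6, C8a, C8b, C8g and C9). Of the fluid-phase regulators with a probe set 1 of 7 was detected. Clusterin (Clu), which binds terminal complexes and acts as an extracellular chaperone, read 118 and 34.5 on its brightest probe set (-1.77 ± 0.65), but its other detected probe set read 65.2 and 67.3 (0.05 ± 0.63). Both carry the x suffix, and the brightest was detected on the control array alone, so its ratio had to be below 0. The C1 inhibitor gene Serping1 lay just under the limit at 45.5 and 48.2. Factor I (Cfi) read 49.1 and 7.98, under the limit on both arrays.

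**Figure D2:**
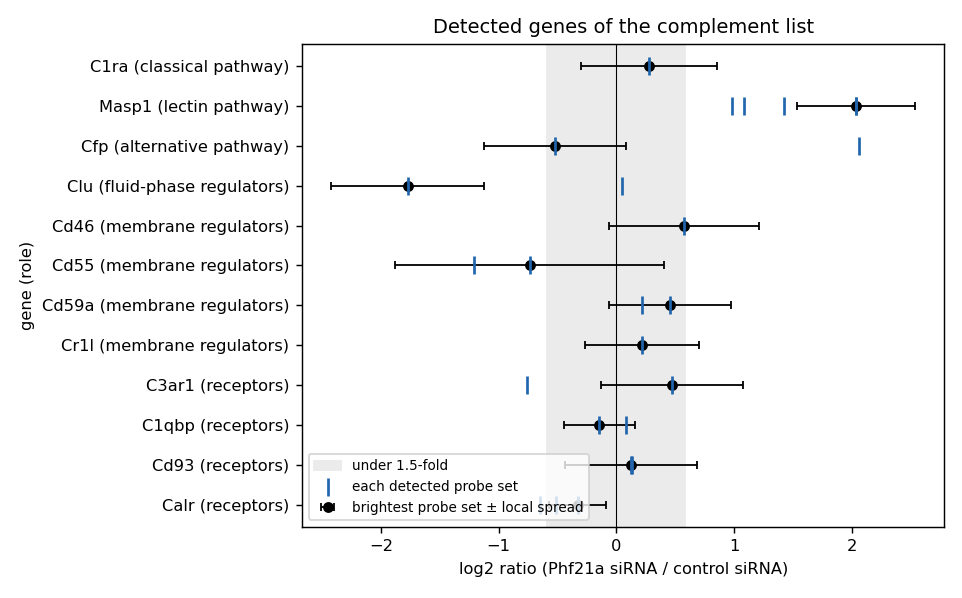
Log2 ratio (Phf21a siRNA over control siRNA) of the 12 detected genes of the complement list, with black points for the brightest probe set, bars for its local spread, blue ticks for each detected probe set and a grey band for differences under 1.5-fold. Masp1 lies at 2.04 with all ticks to the right of the band, Clu and Cd55 lie to its left, and the ticks of Cfp, Clu and C3ar1 spread to both sides or back to 0.

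Over the whole complement list, 45 of 57 genes had a probe set and 12 were detected, beside 62.1% of all genes on the array. The counts of detected genes by pathway given above stand beside the same share. Of the 12, 1 was at least 1.5-fold higher and 2 lower, and 9 lay between. Both lower genes, Cd55 and Clu, were under the limit on the Phf21a siRNA array. With both signals required at the limit 0 were lower, and under the poly-A scaling 5 were. At the reported scaling 15.2% of all detected genes were higher and 13.9% lower, and their shares under the poly-A scaling were not counted. The median log2 ratio of the 12 was 0.17, beside 0.03 for all detected genes. Under the poly-A scaling it was -0.52, beside -0.66 for all detected genes, and under scaling to the hybridisation controls -0.07, beside -0.21.

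Several complement genes belong to the acute phase response, so other secreted acute phase genes were read beside them. Of 20 with a probe set 7 were detected, where the share over all genes on the array was 62.1%. Past 1.5-fold, 4 of the 7 went upwards and 1 downwards, where all detected genes gave 15.2% and 13.9%. The median log2 ratio of the 7 was 0.61, beside 0.03 for all detected genes. Ceruloplasmin (Cp), a copper-carrying ferroxidase, was 2.56-fold higher (1007 to 2577, 1.36 ± 0.46). Of its 8 probe sets 6 were above the limit on both arrays, and 5 of these were at least 1.5-fold higher. The glycoprotein Orm1 was 2.27-fold higher (295 to 672, 1.19 ± 0.51), and Orm2 went from 115 to 176 (0.61 ± 0.61). Lcn2, an iron-scavenging lipocalin, was 2.02-fold higher (1068 to 2163, 1.02 ± 0.47). Ptx3, a pentraxin that binds C1q, was 2.56-fold lower (3333 to 1300, -1.36 ± 0.45). Its dim second probe set, at 40.9 and 51.7, was detected on the Phf21a siRNA array alone, so its ratio had to be above 0. Saa3 lay near the limit at 44.5 and 64.9, and Il6, a cytokine that drives the acute phase, read 147 and 116. Under the poly-A scaling 1 gene of the list was at least 1.5-fold higher and 2 lower. The list's median was then -0.08, beside -0.66 for all detected genes, whose shares past 1.5-fold were not counted.

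Among 17 transcription factors and cytokines known to drive complement genes 12 were detected, beside 62.1% of all genes on the array. Of these 1 was at least 1.5-fold higher, Rel, and 0 were lower, beside 15.2% and 13.9% of all detected genes, and the median log2 ratio was 0.14. Under the poly-A scaling 6 were lower and the median was -0.55, beside a median of -0.66 for all detected genes. The share of all detected genes lower under that scaling was not counted. Cebpb (7761 and 7743), Rela (1750 and 1790), Irf1 (908 and 963) and Stat3 (2273 and 2580, 0.18 ± 0.41) were each within their local spread on the brightest probe set. Dimmer probe sets of Stat3 disagreed, at 139 and 54.0 (-1.37) and at 789 and 1194 (0.60). The brightest of Cebpd read 809 and 864 (0.10 ± 0.49) and its other 92.2 and 22.8 (-2.01). That other one was detected on the control array alone, so its ratio had to be below 0. Rora and Nfkb2 also had dimmer probe sets past their local spread. The brightest of Rora was at 0.46 ± 0.64, and 2 others were at 0.83 ± 0.62 and 1.31 ± 0.64. The latter read 35.8 on the control array, under the limit, so its ratio had to be above 0. The brightest of Nfkb2 was at -0.17 ± 0.53 and its other at -0.62 ± 0.57. Rel, an NF-kB subunit, was 3.00-fold higher (53.4 to 160, 1.58 ± 0.65). Il1b, Tnf, Ifng and Osm were undetected.

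**Figure D3:**
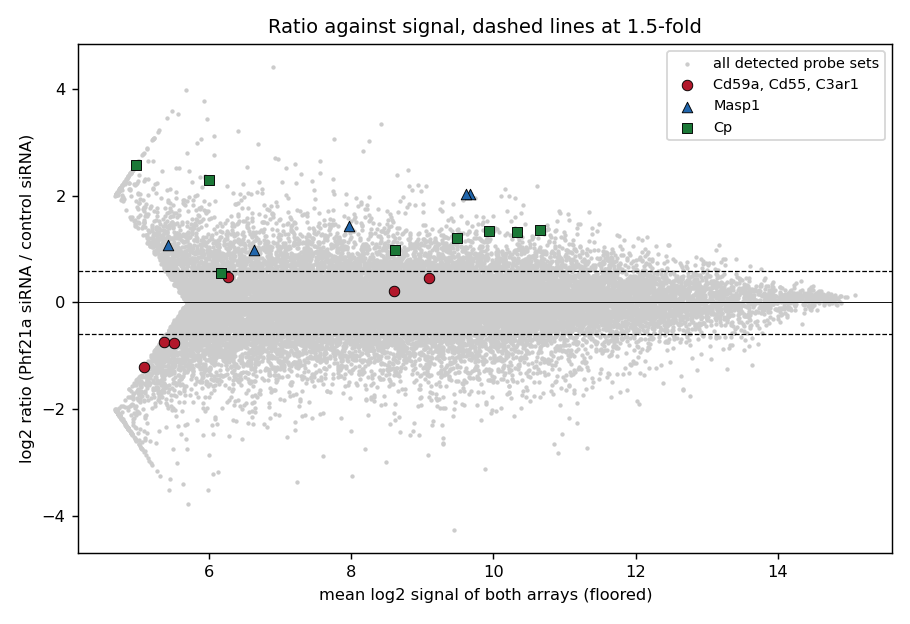
Log2 ratio against mean log2 signal for all detected probe sets (grey), those of Cd59a, Cd55 and C3ar1 (red circles), Masp1 (blue triangles) and Cp (green squares), with dashed lines at 1.5-fold. The empty wedge at the left is where both signals fall under the limit. The lower red circles lie along its edge, and the Masp1 pair near a ratio of 2.03 lies above most probe sets of like signal.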

How the data were processed

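The authors deposited linear signal intensity from MAS5, per the submitters' processing notes, which name no version. Each array had a mean of 500 once 2% of values was trimmed at either end. Such scaling cannot show a change in total messenger RNA per cell. No detection calls entered the analysis. Labelling started from 1 ug of RNA, and cultures were in 25 mM glucose and 10% FBS.

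The array has 45101 probe sets, of which 64 are controls. The platform annotation gives 34945 a single gene, 932 more than 1 and leaves 9160 unnamed. Of the single symbols 34741 matched RefSeq by Entrez number and 0 changed. Before log2, signals under 12.9 (25th percentile over both arrays) were set to that floor, and no fold is given for them. For the local spread, the 16th percentile of the log2 ratios was subtracted from the 84th and the result divided by 2. A gene is represented by its brightest detected probe set, avoiding _x_at ones. With 1 array a group no test was run, and that number limits the precision.

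The members, lists and limits were chosen with earlier results of these data known. Named were all members, Phf21a, every detected complement, acute phase and inducer gene past 1.5-fold, all detected classical pathway genes and regulators, and markers beside a result; undetected genes, and receptors, properdin, acute phase genes and inducers under 1.5-fold, were named after their values were seen. With 2 arrays no genes were chosen for likeness of pattern. Promoter sequences are from RefSeq (GRCm38.p6). The code was tested on simulated data. Alternatives were other scalings, floors, pseudocounts, detection limits, folds and probe set choices. The analysis used Python 3.11.15 (numpy 2.4.6, scipy 1.17.1, pandas 2.3.3), with loess from statsmodels 0.14.6 and figures from matplotlib 3.10.9.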

Additional observations from a re-analysis of the deposited data

How the results depend on the processing

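No paired analysis was possible because each group has 1 array, and no array could be left out. Over 16 results and 13 alternatives, 143 of 193 values stayed within 1.5 times the reported count or within the local spread (divided, for a list's median, by the square root of its number of genes). The other 50 follow, and the cause was not tested except where fewer or more probe sets passed the limit. The member counts rest on probe sets at the limit. The 3 probe sets at least 1.5-fold lower became 0 with loess, with the floor at the detection limit, with a pseudocount of 50 and with both signals required at the limit, and in these 4 settings the 1 past 2-fold became 0 too. Quantile normalization left 0 past 2-fold lower and made 1 higher at 1.5-fold and at 2-fold, since Cfb then passed the limit. With no limit 1 was 1.5-fold higher and 2 were 2-fold lower, and under poly-A scaling 3 were 2-fold lower. Poly-A scaling subtracts 0.69 from every log2 ratio and hybridisation scaling 0.24. The median of all detected genes was then -0.66 and -0.21. Under poly-A scaling Cd59a was at -0.24 and C3ar1 at -0.22. Averaging probe sets put C3ar1 at -0.14.

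Cd55 ranged from -1.43 to -0.06, a sign fixed by its detection on the control array alone; with both signals required at the limit it had no value. In the complement list the genes higher numbered 3 with quantile normalization, 2 with loess, 6 with no limit and 2 with averaged probe sets. Those lower numbered 1 with loess, the floor at the limit, a pseudocount of 50, no suffixed probe sets and 2-fold, 5 under poly-A scaling, 0 with both signals at the limit and 9 with no limit. Its median was -0.52 under poly-A scaling, -0.066 under hybridisation scaling and 0 with no limit. In the acute phase list poly-A scaling gave 1 higher and 2 lower, no limit gave 3 lower and averaging 0 lower. Its median was 0.82 with loess, -0.081 under poly-A scaling, 0.37 under hybridisation scaling, 0.81 with both signals at the limit and 0 with no limit. In the inducer list 2 genes were higher with loess, with averaging and without suffixed probe sets, and the genes lower numbered 6 under poly-A scaling, 1 with no limit and 1 with averaging. Its median was -0.55 under poly-A scaling, -0.099 under hybridisation scaling and 0.30 without suffixed probe sets.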
